A study of Mus musculus with 56 samples.

Results

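The footprint to RNA ratio of mouse kidney was taken gene by gene from 20 of the 56 libraries of the series. These were the 10 ribosome footprint libraries labelled kidney and the 10 RNA libraries in which Kap exceeded 10000 CPM, where CPM is a gene's count scaled to a library total of 1000000. Kap encodes the kidney androgen-regulated protein of the proximal tubule. Of the 10 RNA libraries, Kap ran from 29180 to 70560 CPM, and the highest value among the 18 RNA libraries left out was 19.64 CPM. In the footprint libraries Kap ran from 988.3 to 23350 CPM. A rule asking for Kap above 1000 CPM and Alb, serum albumin made by hepatocytes, below 1000 CPM chose the same 10 RNA libraries.

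All animals were C57BL/6 mice, and the labels name no genotype or treatment. The footprint libraries were labelled 3 months (4 libraries), 20 months (3) and 32 months (3). Only 3 of the 10 RNA libraries were labelled kidney (numbers 2 and 3 at 3 months, number 3 at 20 months). The other 7 carried liver labels: numbers 1 and 2 at 1 month, number 1 at 3 months, number 3 at 11 months (10 months in its title), numbers 2 and 3 at 26 months, and number 2 at 32 months. Tissue labels of these 7 libraries go against their contents, and ages were pooled. The series states 3 animals per age, and 2 at 32 months, which is fewer than the libraries at 3 and 32 months, so n counts libraries and p-values measure the spread between libraries, which may be partly technical.

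A ribosome shields a short stretch of mRNA from nuclease, and sequencing these stretches counts ribosomes on each transcript. The footprint level divided by the RNA level of the same gene is commonly read as ribosome load per transcript, also called translation efficiency. RNA that sits in other nuclease-resistant particles can be sequenced along with footprints. Here footprints and RNA also differ in library protocol, so a ratio compares genes on 1 common scale and its zero point depends on the scaling.

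Total counts ran from 10388818 to 30517983 in the footprint libraries (median 13727308) and from 3342997 to 16380508 in the RNA libraries (median 5569968). Of 11 proximal tubule markers, the 10 other than Kap had a summed level of 13830 to 30760 CPM in the kidney footprint libraries and 25530 to 35980 CPM in the 10 RNA libraries, against 642.3 to 1469 CPM in the 18 RNA libraries left out. The summed level of 7 hepatocyte markers was 425.3 to 2176 CPM in footprints and 1605 to 3366 CPM in RNA, most of it Cyp2e1, which the proximal tubule also expresses. Alb ran from 9.227 to 125.6 CPM in footprints and from 67.3 to 462.3 CPM in RNA. An adrenal transcript, Hsd3b1 of steroid synthesis, reached 60.18 CPM in footprint library 4 labelled 3 months and 117.1 CPM in RNA library 2 labelled liver at 32 months, and it did not exceed 0.299 CPM in any of the other 18 libraries. Ighm, the heavy chain of IgM, varied from 8.564 to 1501 CPM in footprints and from 3.101 to 3190 CPM in RNA.

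A pair of libraries stood apart. Footprint library 2 labelled 3 months correlated at 0.836 with the mean of the other footprint libraries (Pearson, log2 CPM across genes), against 0.979 to 0.992 for the other 9. In that library Kap was lowest (988.3 CPM) and Rpph1, the RNA of ribonuclease P, was highest (67060 CPM). RNA library 1 labelled liver at 1 month held 245800 CPM of Gm42418, a pseudogene in the RefSeq table, against 11290 to 19980 CPM in the other 9 RNA libraries (a gene singled out after its values were seen). Against that RNA library alone the median log2 ratio of all genes was 0.66, and against each of the other 9 it lay between 0.12 and 0.26. Where footprint library 2 lay far from the others, its value or the value without it is given for most lists and for some genes. Other ranges printed below, such as those of Eef2, Eif5b, Jund and Synpo, reach their highest footprint value in that library. With and without it their log2 ratios were 2.585 and 2.444, −2.339 and −2.552, 2.17 and 1.876, and 1.546 and 1.405.

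Across 9473 genes with at least 50 mean counts in both assays, 9371 of them protein-coding, the log2 ratio of mean footprint CPM over mean RNA CPM had a median of 0.20, quartiles of −0.51 and 0.97 and a range from −6.62 to 7.65. The ratio was above 2-fold in 2293 genes (24.2%) and at least 2-fold lower in 1198 genes (12.7%). A further 2173 genes reached 50 mean counts in footprints only and 179 in RNA only, so a gene enters the set only if its RNA was counted too. Without footprint library 2 the median was 0.21, and the 2 sets of ratios correlated at 0.996 across genes. It moved 243 genes by more than 0.25 and 23 by more than 0.5, and all 23 had lower ratios without it.

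The edgeR quasi-likelihood test, over 13921 genes with Benjamini-Hochberg adjusted p under 0.05, called 5936 genes (42.6%) higher and 5036 (36.2%) lower in footprints, 78.8% together. At least 2-fold differences were called higher in 3229 genes (23.2%) and lower in 2425 (17.4%), 40.6% together. The CPM ranges of the 10 footprint and 10 RNA libraries did not overlap in 4416 of the 9473 genes (46.6%), 2897 of them higher in footprints. These shares are the background for every list below. The fit scales libraries by TMM (trimmed mean of M values), under which the median log2 difference over genes was 0.09, against 0.36 with library size only. The share of calls that were higher was 54.1% with TMM and 64.9% with library size only, so small differences change side with the scaling.

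**Figure D1:**
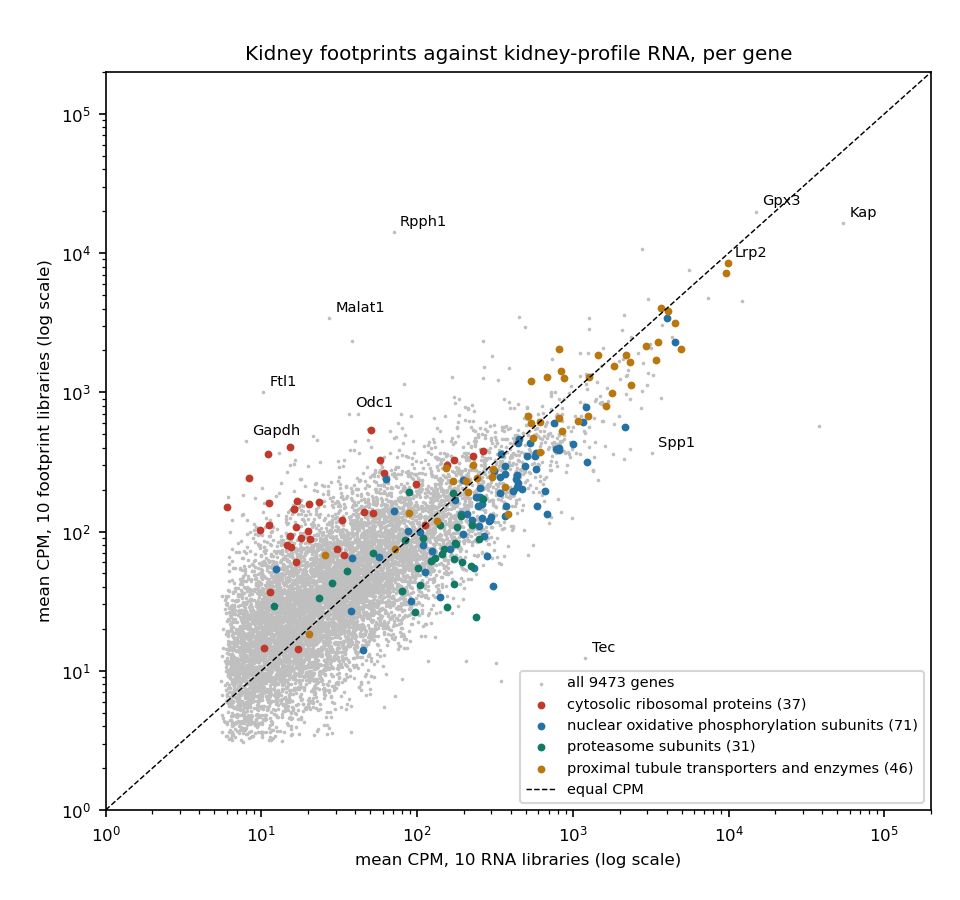
Mean CPM of each of 9473 genes in the 10 kidney footprint libraries (vertical, log scale) against the 10 kidney-profile RNA libraries (horizontal, log scale), with 4 gene lists coloured. Most ribosomal protein genes lie above the dashed line of equal CPM, most oxidative phosphorylation and proteasome genes lie below it, and proximal tubule genes lie close to it.

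The first 30 bases after the annotated start are shown for 4 protein-coding genes of high and 4 of low ratio, because across genes the ratio was higher where the start of the transcript held more G and C. They are the extremes among the named genes outside the ribosomal proteins that have a window in the RefSeq table (GRCm38.p6) and no RefSeq pseudogene under their name; capitals mark G and C, and the sequence is the gene's own strand.
Ccni (cyclin I, high): aGtCCGCGaGGGCGGGGCtaGGCGGCCGGC
Odc1 (ornithine decarboxylase, high): GCCtCCCGGCCGGaaCCGatCGCGGCtGGt
Eif4ebp2 (eIF4E binding protein, high): CGaCCGGGCGaGaGCaGGCGaGttGaGaGC
Fth1 (ferritin heavy chain, high): GatGatatGataGCtatCtCCaGCCaaCCt
Tec (Tec tyrosine kinase, low): tCCGCaGtttGGaCGtCGCtCtGtCttGGC
Ssb (La RNA-binding protein, low): tGCGtCCGCGGCCaCGCCCaCCtGtCCGCa
Nucb2 (nucleobindin, low): GGCaCGCattaGGCtGtGGatCaGaGCaaG
Cetn3 (centrin, low): tCtGGtGGGtGGtCCCCGaGGCGtGGaGGt
The windows lie at chr5:93206466-93206495, chr12:17544873-17544902, chr10:61452640-61452669, chr19:9980600-9980629, chr5:72868419-72868448, chr2:69861562-69861591, chr7:116504369-116504398 and chr13:81783247-81783276 in the order printed, with Ccni, Eif4ebp2 and Tec on the minus strand. G and C made up 25, 23, 21 and 13 of the 30 bases in the high set and 18, 23, 17 and 21 in the low set, so single windows of both sets overlap. The annotated start need not be the start used in kidney.

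Over 7559 coding genes with a window, the ratio and the G+C content of the first 50 bases correlated at a Spearman rho of 0.279 and a Pearson r of 0.267. These are descriptions across genes, which share the same 20 libraries and are not independent. In 5 classes of rising G+C (12 to 56%, 58 to 64%, 66 to 68%, 70 to 76% and 78 to 94%), the median log2 ratio was −0.17, −0.0002, 0.17, 0.39 and 0.84. The quartiles of the lowest class (−0.84 and 0.58) and the highest class (0.12 and 1.62) overlap. G+C of the 250 bases upstream of the start gave a rho of 0.221, and the ratio of liver libraries gave 0.286 with the first 50 bases. Leaving out genes whose name RefSeq also gives to a pseudogene left a rho of 0.283 over 7394 genes.

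**Figure D2:**
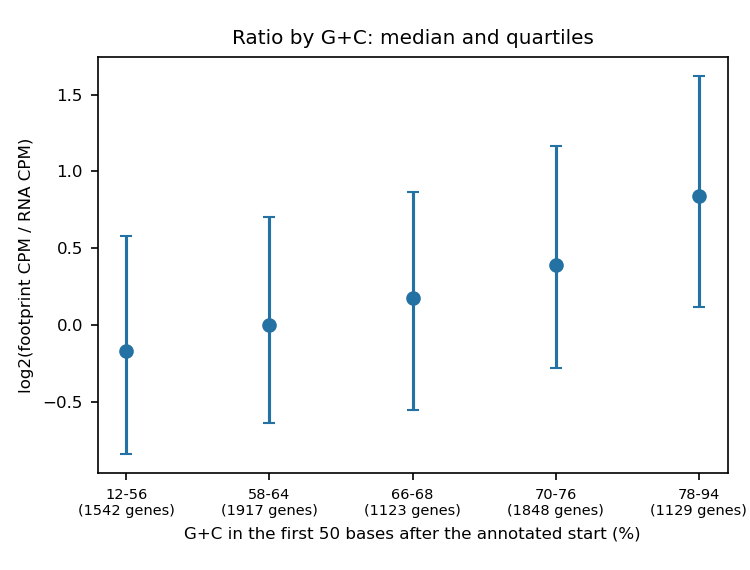
Median (points) and quartiles (bars) of the log2 footprint to RNA ratio in 5 classes of G+C content in the first 50 bases after the annotated start, with the class bounds (%) and the number of genes on the horizontal axis. The median rises from −0.17 in the lowest class to 0.84 in the highest, and the quartile bars overlap.

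3 RNAs best known from the nucleus were among the 4 highest ratios. Rpph1, the RNA of the tRNA-processing enzyme ribonuclease P, ran from 6586 to 67060 CPM in footprints (median 8643) and from 47.72 to 96.1 CPM in RNA (median 68.57). Its log2 ratio was 7.65, and 6.88 without footprint library 2. Malat1, a long RNA retained in the nucleus, ran from 2465 to 6981 CPM in footprints and from 22.61 to 44.57 CPM in RNA, a log2 ratio of 6.96. Rmrp, the RNA of ribonuclease MRP, ran from 1798 to 4031 CPM in footprints and from 19.54 to 80.77 CPM in RNA, a log2 ratio of 5.95. None of them is annotated as protein-coding. Separate ranges of the assays were a condition for naming genes of extreme ratio, these 3 included.

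Of 9 tested members of the list of nuclear and structural RNAs, 8 were higher in footprints, all 8 at least 2-fold, and none was lower. Rn7sk, the RNA that holds the elongation factor P-TEFb inactive, missed the threshold of 50 RNA counts with 174 RNA counts in all, and ran from 5147 to 36820 CPM in footprints (a gene singled out after its values were seen). In footprint library 2 the median over the 3 members that passed the threshold was 7.99, against 6.49 to 7.01 in the other 9 footprint libraries, and it was 6.78 without that library. Vaultrc5, the RNA of vault particles, went the other way, with 3.902 to 33.29 CPM in footprints and 209.2 to 472.1 CPM in RNA (log2 ratio −5.35). Protein-coding genes held 91.99% of footprint counts and 94.2% of RNA counts.

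Genes of the translation machinery divided into those above and those below the median of all genes. Of 83 tested cytosolic ribosomal protein genes, 78 were higher in footprints and 1 was lower, with 71 higher by at least 2-fold. Rplp0, a stalk protein of the large subunit, ran from 429.4 to 781.9 CPM in footprints (median 533.4) and from 40.38 to 58.55 CPM in RNA (median 51.1), a log2 ratio of 3.41. Rpl8 ran from 317.0 to 414.2 CPM in footprints and from 197.8 to 299.7 CPM in RNA, a log2 ratio of 0.51. Footprints and RNA did not overlap in either gene. The lowest ratio in the list was that of Rpl36al, −0.26, whose ranges overlapped (6.832 to 16.33 against 9.08 to 21.42 CPM).

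The ribosomal protein values are uncertain, because RNA counts of many members were near zero. Of the 84 genes, 31 had a mean under 1 CPM in the 10 RNA libraries, 30 did so in the liver-profile RNA libraries as well, and 37 reached the threshold in both assays. Rps13 had 4 RNA counts in all and 43.94 to 119.3 CPM in footprints, and Rpsa had 12 RNA counts and 212.4 to 775.8 CPM in footprints (both singled out after their values were seen). The median log2 ratio was 2.34 over the 37 members and 0.94 over the 13 of them that share no name with a RefSeq pseudogene. Near-identical copies can share or lose reads in counting, and the part of such copies in these ratios was not tested.

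Single genes outside the ribosomal proteins showed low RNA counts as well. The shares and medians that follow include ribosomal protein genes, so they do not show a pattern apart from those. Of 292 coding genes with a RefSeq pseudogene under their name and 50 or more mean footprint counts, 67.8% also reached 50 mean RNA counts, against 83.2% of 11029 coding genes without one. Those that passed had a median log2 ratio of 0.83 (198 genes), and the others 0.19 (9173 genes). Ftl1, the ferritin light chain, ran from 798.6 to 1885 CPM in footprints and from 3.739 to 19.14 CPM in RNA (log2 ratio 6.61). Gapdh, the glycolytic glyceraldehyde-3-phosphate dehydrogenase, ran from 247.5 to 540.9 CPM in footprints and from 6.41 to 10.77 CPM in RNA (5.80). Rps2 (5.03), Rpl7a (4.87), Rplp1 (4.74) and Wsb2, a substrate adaptor of ubiquitin ligases (4.59), also share a name with pseudogenes. Low RNA counts leave the size of these 6 ratios uncertain. Ppia, cyclophilin A, singled out after its values were seen, had 60 RNA counts in all against 150.7 to 291.4 CPM in footprints.

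3 further coding genes among the highest ratios carry no such pseudogene name. The match was by name only, so copies under other names were not looked for, here or above. Ccni, cyclin I, ran from 336.6 to 421.8 CPM in footprints (median 359.9) and from 8.724 to 23.96 CPM in RNA (median 13.02), a log2 ratio of 4.82. Tmem189, which encodes the desaturase of plasmalogen synthesis, ran from 111.8 to 212.6 CPM against 3.917 to 8.318 CPM (4.85). Rpl41, the smallest ribosomal protein, ran from 45.15 to 175.3 CPM against 4.273 to 8.737 CPM (4.62). The lowest footprint value of Rpl41 was that of footprint library 2.

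The other genes with a 5′ terminal oligopyrimidine tract, a start sequence through which the mTOR pathway controls translation, had 11 members higher and 4 lower of 20 tested, with a median log2 ratio of 0.63 over 18 members (0.73 without footprint library 2). Without members that share a name with a pseudogene the median was 0.36 over 15. Eef2, the elongation factor that moves the ribosome along, ran from 2336 to 5408 CPM in footprints and from 374.8 to 616.5 CPM in RNA, with a fitted log2 difference of 2.32 ± 0.15 (SE, 10 libraries per assay, edgeR adjusted p = 3.05e-12). Eef1a1, which brings charged tRNA to the ribosome, ran from 1605 to 2143 CPM against 235.4 to 377.7 CPM, a difference of 2.32 ± 0.10 (edgeR adjusted p = 1.69e-15). Eif3f, an initiation factor subunit, had the lowest ratio of the list (−0.90), with 105.6 to 207.2 CPM in footprints and 146.3 to 474.3 CPM in RNA, which overlap. Eef2, Eef1a1 and, below, Ndufab1, Selenok, Psma5 and Srsf3 share their names with RefSeq pseudogenes, so their ratios carry the same uncertainty. Windows with a start of C and at least 4 pyrimidines (C or T) beginning within 5 bases of the annotated start made up 18.5% of 27025 RefSeq windows and 29 of the 63 windows of ribosomal protein genes. Genes with such a start had a median log2 ratio of 0.18 (1504 genes) and other genes 0.21.

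Initiation factors and aminoacyl-tRNA synthetases were mostly lower in footprints. Of 30 initiation factor genes 9 were higher and 19 lower, with a median log2 ratio of −0.28. The 2 most abundant members, Eif4g2 and Eif4g1, were among the 9 higher (log2 ratios 0.48 and 0.60). Eif4ebp2, a repressor that binds the cap-binding factor eIF4E, was the highest, with 426.2 to 474.1 CPM in footprints against 30.09 to 48.7 CPM in RNA (log2 ratio 3.49). Eif5b, the factor that joins the ribosomal subunits, was the lowest, with 19.44 to 58.37 CPM against 105.4 to 152.9 CPM (−2.34). Of 19 synthetases tested, which load amino acids onto tRNA, 1 was higher (Vars, valine, ratio 0.88) and 17 were lower, and Rars (arginine) was lowest with 8.089 to 24.25 CPM against 66.05 to 86.57 CPM (−2.14). The ranges of Eif4ebp2, Eif5b, Vars and Rars did not overlap.

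Among transcripts known for translational control, ferritin and polyamine genes had high ratios. Iron regulatory proteins bind a hairpin in the leader of ferritin mRNAs and block their translation when iron is low, and polyamines promote the frameshift that makes antizyme, the inhibitor of ornithine decarboxylase. Fth1, the ferritin heavy chain, ran from 3188 to 4013 CPM in footprints (median 3502) and from 325.1 to 553.4 CPM in RNA (median 477.3), a log2 ratio of 2.96. Tfrc, the transferrin receptor, whose mRNA is stabilised through hairpins near its 3′ end, had the lowest ratio of the iron list, with 14.87 to 73.64 CPM in footprints and 92.43 to 187.6 CPM in RNA (−1.17). Neither pair overlapped. Of 12 iron list genes, 6 were higher and 2 lower, with a median of 0.55, or 0.64 without footprint library 2.

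Odc1, ornithine decarboxylase, the first enzyme of polyamine synthesis, ran from 289.8 to 1240 CPM in footprints (median 689.2) and from 14.06 to 66.9 CPM in RNA (median 34.46), a log2 ratio of 4.27. Azin1, which protects it from degradation, ran from 26.02 to 154.3 CPM against 101.1 to 151.6 CPM, ranges that overlap, and had the lowest ratio of the list (−0.26). Of 11 polyamine genes tested, 10 were higher and 1 lower, but 6 of the 12 members reached 50 mean counts in both assays, and their median was 1.11 (1.18 without footprint library 2). The median was 0.79 over the 4 of these 6 that share no name with a RefSeq pseudogene.

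Genes with upstream reading frames or a role in the stress response had 8 members higher and 3 lower of 16 tested. Mief1, a mitochondrial fission factor whose mRNA also encodes a small upstream protein, ran from 40.23 to 74.03 CPM in footprints and from 10.15 to 18.88 CPM in RNA (log2 ratio 2.18). Ppp1r15b, the constitutive subunit of the phosphatase that reverses eIF2 phosphorylation, ran from 191.1 to 230.5 CPM against 49.67 to 87.93 CPM, a fitted difference of 1.35 ± 0.07 (SE, edgeR adjusted p = 1.99e-14). Atf4, the transcription factor translated under stress, ran from 61.89 to 81.7 CPM against 27.24 to 43.28 CPM (singled out after its values were seen). None of these 3 overlapped. Asns, asparagine synthetase and a target of Atf4, had the lowest ratio (−0.30, ranges overlapping). The list median was 0.64 with footprint library 2 and 0.34 without it.

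Selenoproteins, which read a stop codon as selenocysteine, had 11 members higher and 6 lower of 20 tested, with a median log2 ratio of 0.56 (0.65 without footprint library 2). Gpx3, the secreted glutathione peroxidase of the proximal tubule, was among the most abundant transcripts in both assays, with 16520 to 23690 CPM in footprints (median 19560) and 9550 to 19610 CPM in RNA (median 14600). These ranges overlap and Gpx3 was not called (fitted log2 difference 0.14 ± 0.11, SE, edgeR adjusted p = 0.229). Selenop, the selenium carrier, was not called either (adjusted p = 0.557). Selenok of the endoplasmic reticulum had the highest ratio (2.39, 18.47 to 47.35 against 4.791 to 10.15 CPM) and Selenom the lowest (−0.42).

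Mitochondrial proteins encoded in the nucleus had low ratios, and they were lower still in footprint library 2. Of 76 nuclear oxidative phosphorylation genes tested, 64 were lower in footprints, 41 of them at least 2-fold, and 8 were higher. The median log2 ratio was −0.84, with −2.12 in footprint library 2, −0.90 to −0.68 in each of the other 9 footprint libraries, and −0.73 without that library. Atp5a1, the alpha subunit of ATP synthase, ran from 965.4 to 2551 CPM in footprints (median 2480) and from 3484 to 4764 CPM in RNA (median 4605), a fitted log2 difference of −1.23 ± 0.13 (SE, edgeR adjusted p = 8.48e-09), with no overlap. Atp5b, the beta subunit, ran from 1120 to 3879 CPM against 3106 to 4313 CPM, with overlap, a difference of −0.49 ± 0.15 (edgeR adjusted p = 0.00504). Ndufa5 of complex I had the lowest ratio, with 20.39 to 47.77 CPM against 220.4 to 342.4 CPM (−2.92). Ndufab1, the acyl carrier protein, had the highest (2.14, 27.77 to 63.0 against 8.012 to 16.11 CPM).

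Mitochondrial ribosomal proteins had 58 members lower and 14 higher of 77 tested, with a median log2 ratio of −0.45. In footprint library 2 the median was −1.16, and without it −0.39. Mrps31 was lowest, with 7.925 to 27.63 CPM in footprints and 70.33 to 101.5 CPM in RNA (−2.07), and Mrps26 was highest, with 46.3 to 98.76 CPM against 19.74 to 27.35 CPM (1.28). Neither pair of ranges overlapped. Enzymes of fatty acid oxidation and the citrate cycle had 24 members lower and 2 higher of 30, with a median of −0.70, or −0.63 without footprint library 2. Dld, a subunit shared by the dehydrogenase complexes of the citrate cycle, was lowest with 34.0 to 155.4 CPM against 621.9 to 794.1 CPM (−2.51).

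The 13 genes of the mitochondrial genome are translated on mitochondrial ribosomes. Of the 13, 5 had a mean under 1 CPM in RNA and 6 in footprints. Of 8 tested, 3 were higher and 1 lower, and the median log2 ratio was 0.63 over 7 genes. mt-Co1, subunit 1 of cytochrome c oxidase, had 11180 CPM at the median of the footprint libraries and ran from 1350 CPM, in footprint library 2, to 14720 CPM. In RNA it ran from 2271 to 3184 CPM (median 2765). The ranges overlap through that 1 footprint library, and the log2 ratio was 1.94 with it and 2.07 without it. mt-Cytb ran from 422.8 to 7011 CPM against 2570 to 3491 CPM and was not called (edgeR adjusted p = 0.22). In footprint library 2 the list median was −1.37, and without it 0.77.

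Of 31 genes of the proteasome, the protease that degrades ubiquitin-tagged proteins, 23 were lower in footprints, 19 of them at least 2-fold, and 3 were higher, with a median log2 ratio of −0.99, and −0.92 without footprint library 2. Psmc6, an ATPase of the regulatory particle, was lowest, with 11.48 to 32.37 CPM in footprints and 188.0 to 259.8 CPM in RNA (−3.29). Psmb4, a core subunit and 1 of the 2 most abundant members, ran from 48.7 to 193.4 CPM against 222.9 to 298.8 CPM, a fitted difference of −0.92 ± 0.16 (SE, edgeR adjusted p = 1.55e-05). Psmd3, the other, was not called (adjusted p = 0.066). Psma5 had the highest ratio (1.26), and its ranges overlapped.

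Endoplasmic reticulum chaperones and folding enzymes had 17 members lower and 4 higher of 24 tested, with a median log2 ratio of −0.50 (−0.42 without footprint library 2). Hsp90b1, the Hsp90 of this compartment, ran from 99.03 to 163.6 CPM in footprints and from 764.0 to 1266 CPM in RNA (−2.97). P4hb, protein disulfide isomerase, ran from 664.5 to 998.0 CPM against 1270 to 1792 CPM, a fitted difference of −1.12 ± 0.09 (SE, edgeR adjusted p = 2.68e-10). Ern1, the sensor kinase of the unfolded protein response, was the highest, with 52.65 to 64.45 CPM against 11.04 to 17.76 CPM (1.89). None of these 3 overlapped. Cytosolic chaperones had 15 lower and 3 higher of 21, from Cct8 of the chaperonin ring (−1.95) to Hspa8, the constitutive Hsp70 (2.25, 550.3 to 1255 against 98.11 to 250.0 CPM). Without members that share a name with a pseudogene their median was −0.31 in place of −0.45.

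**Figure D3:**
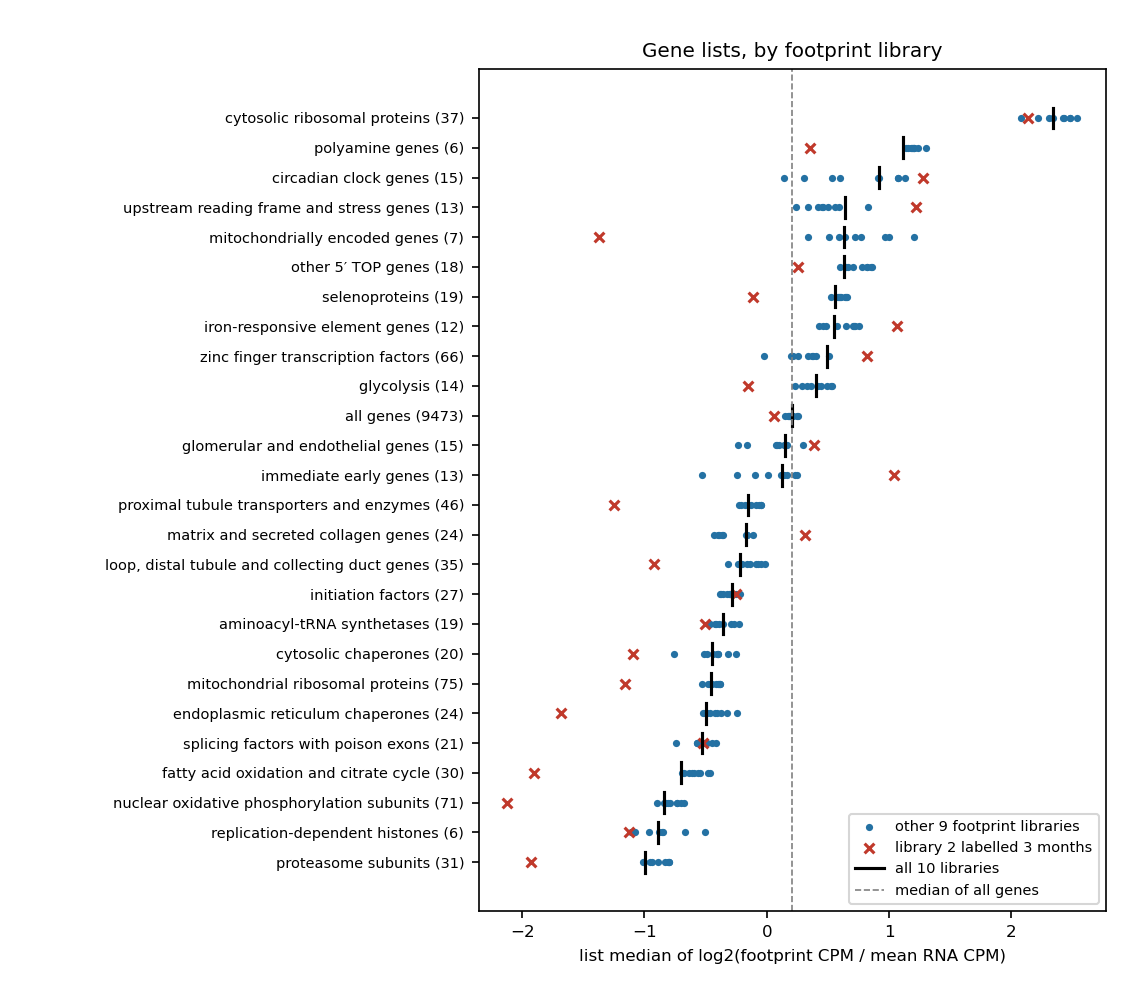
Median log2 footprint to RNA ratio of each gene list (members passing the threshold in brackets), with each of 9 footprint libraries as a blue point, footprint library 2 labelled 3 months as a red cross, the value over all 10 as a black bar, and the median of all genes (0.20) as a dashed line. The red cross lies apart from the points in most lists, at −2.12 for oxidative phosphorylation.

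Most genes of tubule cells had ratios below the median of all genes, and proximal tubule genes were lowest in footprint library 2. In bulk tissue fewer cells of a type and less RNA per cell cannot be told apart. Of 46 proximal tubule transporter and enzyme genes, 28 were lower and 8 higher, with a median log2 ratio of −0.15 (−1.25 in footprint library 2, −0.11 without it). Lrp2, the endocytic receptor megalin, ran from 5058 to 10560 CPM in footprints (median 8722) and from 7626 to 12130 CPM in RNA (median 9683), a fitted difference of −0.49 ± 0.11 (SE, edgeR adjusted p = 0.00039). Slc34a1, the sodium-phosphate cotransporter, ran from 3470 to 8323 CPM against 7422 to 11000 CPM, a difference of −0.70 ± 0.13 (edgeR adjusted p = 2.62e-05). Both pairs overlap. Spp2, a secreted phosphoprotein, had the lowest ratio (−1.53) and Slc22a30, an organic anion transporter, the highest (1.40). Kap itself ran from 988.3 to 23350 CPM (median 18460) against 29180 to 70560 CPM (median 56310), a log2 ratio of −1.72, or −1.58 without footprint library 2, given without a test because Kap chose the RNA libraries.

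Genes of the loop of Henle, distal tubule and collecting duct had 18 members lower and 8 higher of 35, with a median log2 ratio of −0.22 (−0.17 without footprint library 2). Umod, the uromodulin of the thick ascending limb, ran from 2181 to 7087 CPM in footprints (median 4759) and from 5027 to 11020 CPM in RNA (median 7215), with overlap, a difference of −0.89 ± 0.15 (SE, edgeR adjusted p = 1.39e-05). Slc4a1, the anion exchanger of intercalated cells and red cells, was highest (1.15) and Atp6v1g3, a proton pump subunit of intercalated cells, lowest (−2.53, 4.068 to 8.748 against 22.26 to 63.01 CPM). Aqp2, the vasopressin-regulated water channel, ran from 193.7 to 424.8 CPM against 78.97 to 171.9 CPM (1.13), and Calb1, calbindin of the distal convoluted tubule, from 137.9 to 309.5 CPM against 411.5 to 1122 CPM (−1.76). Neither of these last pairs overlapped.

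Glomerular and endothelial genes had 4 members higher and 6 lower of 16. Synpo, an actin-binding protein of podocytes, was highest (1.55, 53.42 to 144.5 against 12.46 to 45.77 CPM) and Emcn, an endothelial sialomucin, lowest (−1.74, 9.237 to 45.76 against 84.57 to 137.0 CPM). Matrix genes had 15 lower and 3 higher of 24, and their median of −0.17 was −0.31 without footprint library 2, in which it was 0.31. Col3a1, a fibrillar collagen, was highest (1.05) and Spp1, osteopontin, lowest, with 230.4 to 784.6 CPM in footprints and 1392 to 6708 CPM in RNA (−3.13). All 5 erythroid genes were higher in footprints, at least 2-fold, with summed levels of 233.9 to 724.4 CPM in footprints and 50.39 to 231.5 CPM in RNA. Hbb-bs, adult beta globin, ran from 74.88 to 418.4 CPM against 14.94 to 93.33 CPM (3.14, ranges overlapping), and the blood content of the samples was not tested. Of the B and plasma cell markers none was higher and 1 of 5 was lower, and of 6 adipocyte markers 2 were lower.

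Of 18 circadian clock genes, 11 were higher and 1 was lower, with a median log2 ratio of 0.92. Per3 was highest, with 36.74 to 79.69 CPM in footprints and 4.487 to 14.37 CPM in RNA (2.59, no overlap), and Nr1d1, the repressor REV-ERB alpha, was the 1 lower (−0.56, ranges overlapping). The list median ran from 0.14 to 1.13 over the 9 footprint libraries other than library 2. Of 17 immediate early genes 5 were higher and 3 lower, led by Jund, a subunit of the AP-1 factor (2.17, 180.6 to 669.2 against 38.64 to 76.38 CPM).

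Zinc finger factors were divided much as all genes were, with 37 higher and 35 lower of 86 (all genes 42.6% higher and 36.2% lower). Their median was 0.49, or 0.37 without footprint library 2 and 0.02778 with only the 3 kidney-labelled RNA libraries. With a minimum of 200 mean counts it was −0.22, so the median log2 ratio of zinc finger transcription factors changed direction. The median of all genes also fell, to slightly negative values, with the kidney-labelled RNA and with that minimum, so part of the move was shared by all genes. Members ran from Zfp101 (−2.11, 2.152 to 4.919 against 10.15 to 18.61 CPM) to Zfp706 (4.31, 190.5 to 353.4 against 7.656 to 27.34 CPM). Splicing factors with poison exons, short exons that bring a stop codon, had 16 members lower and 2 higher of 22, with a median of −0.53. Hnrnph1 was lowest (−2.68, 17.81 to 44.05 against 115.7 to 224.3 CPM) and Srsf3 highest (1.80, 25.52 to 33.83 against 5.963 to 12.26 CPM). Replication-dependent histone genes, whose mRNAs lack a poly(A) tail, had 6 lower and 3 higher of 12. In glycolysis 8 of 16 genes were higher and 4 lower. Gapdh was highest there.

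Genes of lowest ratio were likewise taken among coding genes with separate ranges. Tec, a tyrosine kinase best known in blood cells, ran from 9.866 to 14.13 CPM in footprints (median 12.41) and from 510.7 to 2279 CPM in RNA (median 1096), a log2 ratio of −6.62. Ssb, the La protein that binds new RNA polymerase III transcripts, ran from 9.346 to 17.23 CPM against 163.3 to 231.6 CPM (−4.15). Nucb2, the calcium-binding precursor of nesfatin, ran from 4.232 to 9.018 CPM against 48.96 to 76.04 CPM (−3.46). The 10 RNA libraries of Tec spread over a wider range, relative to their median, than those of Ssb and Nucb2.

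The others of the 12 were Cetn3, centrin of the centrosome (−3.44), Esf1, a ribosome biogenesis factor (−3.37), Fkbp3, a prolyl isomerase (−3.31), Psmc6, Emc2 of the membrane protein insertase EMC (−3.22), Spp1, Hsp90b1, Ndufa5 and Ncl, the nucleolar protein nucleolin (−2.91). Ncl ran from 46.2 to 170.1 CPM in footprints and from 406.7 to 566.2 CPM in RNA. Genes at both ends were chosen by this ratio, so no p-value is given for them. The annotation used in counting and overlapping or antisense transcripts were not examined here.

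**Figure D4:**
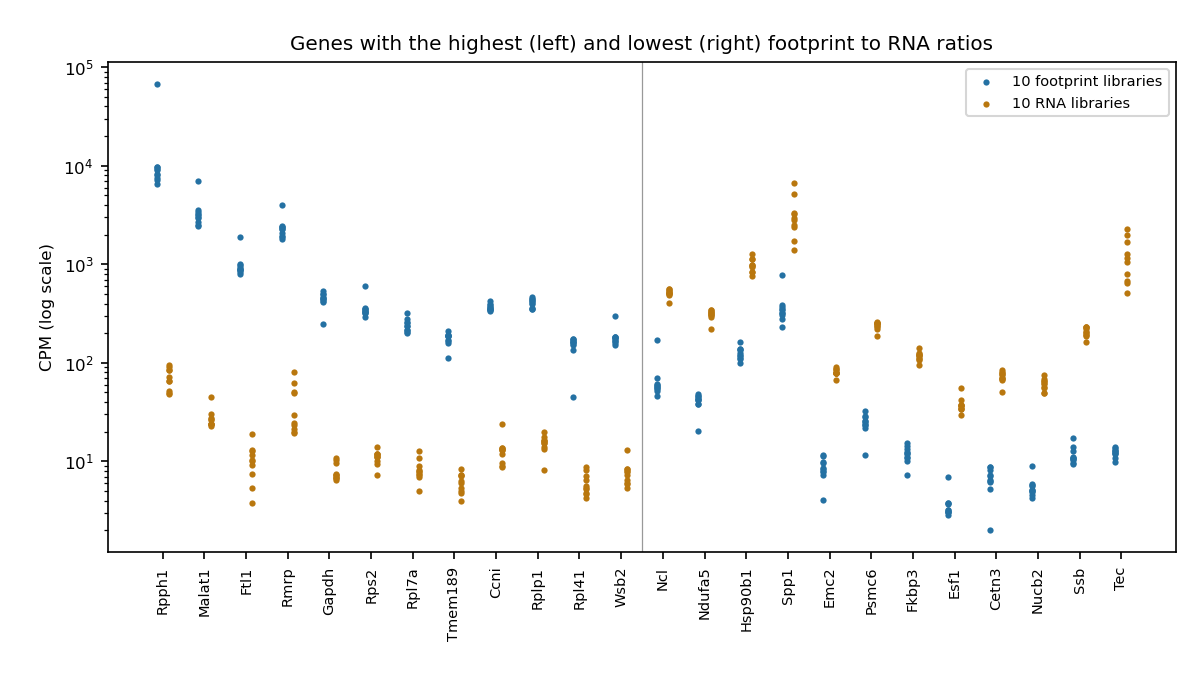
CPM (log scale) in each of 10 kidney footprint libraries (blue) and 10 kidney-profile RNA libraries (orange) for the 12 genes with the highest and the 12 coding genes with the lowest ratios among genes whose ranges do not overlap, a condition of the choice. The points run from 47.72 to 96.1 CPM of Rpph1 RNA below 6586 CPM of footprints to 510.7 CPM of Tec RNA above 14.13 CPM.

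The kidney ratio was set beside that of liver to show where it differs. The liver side held 18 footprint libraries labelled liver and 18 RNA libraries of liver profile, some of them labelled kidney. Liver footprints included animals of 1, 11 and 26 months, ages that no kidney footprint library had. Ages were pooled and age was not a term in the fit, so the part of age in tissue differences was not tested. Over 6635 genes with 50 or more mean counts in all 4 groups, kidney and liver log2 ratios correlated across genes at a Pearson r of 0.914 and a Spearman rho of 0.912, as a description. The median was 0.07 in kidney and 0.43 in liver on the CPM scale. The interaction of assay and tissue profile over all 56 libraries (edgeR, 14785 genes) called the ratio higher in kidney for 1281 genes (8.66%) and lower for 1819 (12.3%), 21.0% together. With library size only in place of TMM it called 285 higher and 4334 lower, so the balance of directions rests on the scaling (41.3% and 6.17% of calls higher). With only RNA libraries whose label names their profile it called 398 higher and 620 lower.

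Among genes with 50 or more mean counts in all 4 groups of libraries, the largest differences with kidney higher were in Gapdh and Spns2. Genes named here and below were chosen from called genes by the size of this interaction, so their p-values are no separate support. Gapdh had 444.1 CPM in kidney footprints and 7.956 CPM in kidney RNA (62.3 mean counts), against 252.4 and 28.84 CPM in liver. It shares its name with pseudogenes, so its difference carries the uncertainty given above. Spns2, a sphingosine-1-phosphate transporter, had 121.9 ± 31.9 CPM in kidney footprints and 8.10 ± 2.09 CPM in kidney RNA (SD, n = 10 libraries), against 23.5 ± 9.17 CPM and 9.65 ± 3.64 CPM in liver (SD, n = 18 libraries). The RNA levels of the tissues differed by less than their SD and the footprint levels by more, and the interaction was 3.04 ± 0.26 (log2, SE, edgeR adjusted p = 1.84e-13). Igf1r, the receptor of insulin-like growth factor 1, had 608.3 ± 77.6 and 184.2 ± 35.9 CPM in kidney against 9.11 ± 3.34 and 14.8 ± 10.2 CPM in liver, an interaction of 2.79 ± 0.33 (edgeR adjusted p = 4.43e-09). Cfb, complement factor B, had 39.2 ± 4.75 CPM in kidney footprints and 80.8 ± 13.1 CPM in RNA against 15.3 ± 5.02 and 152.8 ± 38.2 CPM in liver, so that its ratio was below zero in both tissues and lower in liver (2.69 ± 0.20, edgeR adjusted p = 4.7e-16). Arhgef10l, a guanine nucleotide exchange factor (2.51), Kdf1 of keratinocyte differentiation (2.39), Lama1, a basement membrane laminin (2.03), and Rnf24, a RING finger protein (1.96), completed the 8.

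Among the same genes, of those with the kidney ratio lower, Ankrd13c, an ankyrin repeat protein, had 320.3 ± 38.0 CPM in kidney footprints and 269.7 ± 19.0 CPM in kidney RNA, against 43.1 ± 7.25 and 7.10 ± 1.80 CPM in liver. Its interaction was −2.005 ± 0.12 (log2, SE, edgeR adjusted p = 1.13e-18). Nfyb, a subunit of the CCAAT-binding factor NF-Y, had an interaction of −1.91 ± 0.15 (edgeR adjusted p = 6.36e-15), Acnat1, an acyltransferase of peroxisomes, −1.90, and Mrpl33, a mitochondrial ribosomal protein, −1.67. Hpx (hemopexin, −1.93) and Serpina3k (a serpin, −1.70) are secreted by hepatocytes and had 28.4 and 17.5 CPM in kidney RNA against 9994 and 9944 CPM in liver RNA. The part of liver RNA in their kidney values was not tested.

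Mir6236, a microRNA locus, and Lars2, the mitochondrial leucyl-tRNA synthetase, had the most negative interactions among these genes, −5.15 and −4.80, but both rest on a pair of libraries, RNA library 1 labelled liver at 1 month and liver footprint library 2 labelled 20 months. Lars2 reached 6705 CPM in the RNA library, with a median of 189.4 CPM over the 10, and Mir6236 reached 2793 CPM with a median of 49.64 CPM. In the liver footprint library Lars2 reached 9195 CPM and Mir6236 617.7 CPM, against at most 225.8 and 33.72 CPM in the other 17. Without the RNA library the interactions of Lars2 and Mir6236 were −2.31 and −2.06 (edgeR adjusted p = 0.153 and 0.22). Without the footprint library they were −1.46 and −2.46 (edgeR adjusted p = 0.199 and 0.0669). Without both they were 1.09 and 0.67 (edgeR adjusted p = 0.15 and 0.596), so the direction changed and neither was called. The kidney log2 ratio of Lars2 was −2.59 with the RNA library and −0.40 without it. Gm42418 was highest in both libraries of the pair, with 77160 CPM in the footprint library.

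Over all 9469 tested genes with 50 or more mean counts in both kidney assays, the interaction was higher in kidney for 971 and lower for 1528. Zinc finger factors, 1 of the larger lists, had the most calls in number, which is not the largest share. Of 66 tested members 27 were lower in kidney and 4 higher, with medians of 0.09 in kidney and 1.01 in liver over 41 shared genes. Cytosolic chaperones had 8 lower and 2 higher of 20. Splicing factors had 7 of 21 lower and none higher, with medians of −0.67 and 0.01, and initiation factors 11 lower and 3 higher of 27. Oxidative phosphorylation genes had 10 higher and 2 lower of 71, with medians of −0.85 and −0.66, and aminoacyl-tRNA synthetases 6 higher and 2 lower of 19. Ribosomal proteins had 7 of 37 lower, a share near that of all genes, and none higher, with medians of 2.10 and 2.75. The other oligopyrimidine genes had 7 of 18 lower and none higher, with medians of 0.39 and 1.15 over 16 shared genes. Medians here are on the CPM scale, on which the median over all shared genes was 0.07 in kidney and 0.43 in liver, and counts are on the TMM scale.

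**Figure D5:**
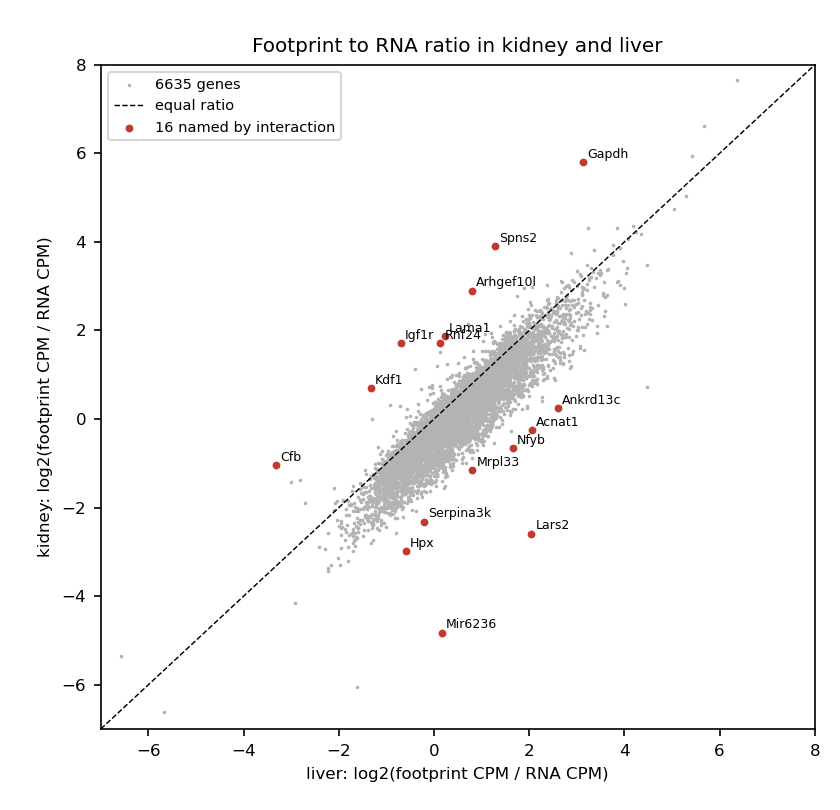
Log2 footprint to RNA ratio in kidney (vertical) against liver (horizontal) for 6635 genes with 50 or more mean counts in all 4 groups of libraries, with the dashed line of equal ratio and 16 genes named by the interaction in red. Most points follow the line slightly below it, with Gapdh, Spns2 and Cfb above it and Lars2 and Mir6236 below it.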

How the data were processed

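Per the labels' protocols, each lysate was split: a nuclease mix of RNase T1 and S7 released the footprints from one portion, and the other gave total RNA for strand-specific libraries after rRNA removal. The authors deposited unnormalized read counts for every gene. Per the submitters' processing notes, cutadapt 1.14, STAR 2.5.3 and mm10 were used; the counting tool and annotation are not given in the sources used here. Of 50222 gene identifiers 49998 matched a symbol.

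Members, lists and tests were chosen with earlier results of these data known. The main test was edgeR 4.0.16 in R 4.3.3 (filterByExpr with a minimum count of 10, TMM, robust quasi-likelihood, two-sided, Benjamini-Hochberg at 0.05), with assay as the term over 20 libraries, or assay, profile and interaction over 56. SE was derived from the log2 difference and its F. The procedure was tested on simulated counts. Errors of means are SD.

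Named genes had 50 or more mean counts in both assays and no predicted-model or pseudogene name: the 12 highest ratios, the 12 lowest of coding and 6 lowest of other genes (ranges separate, at least 5 CPM in the higher assay), the 6 most abundant per assay, the highest, lowest and 2 most abundant of each list, and the 8 largest called interactions each way among genes with 50 or more mean counts in all 4 groups. Not all are printed, and some named genes are not reported here. Alternatives were other scalings, filters and minimum counts, DESeq2 1.42.0, RNA libraries also labelled kidney, a replicate block and each library left out.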

Additional observations from a re-analysis of the deposited data

Results flagged for a closer look

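With 10 libraries per assay, a library was singled out where the gap between it and its nearest neighbour exceeded Dixon's critical share of the whole range. 57 of 126 groups of values gave such a library, while chance flags about 1 in 20 groups, and most of the 57 are footprint library 2 labelled 3 months or RNA library 1 labelled liver at 1 month.

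Footprint library 2 had list medians (log2 ratio) far from the other 9 footprint libraries in these lists: all genes 0.06146, other oligopyrimidine genes 0.25, snoRNA hosts −1.84, nuclear RNAs 7.99, mitochondrial ribosomal proteins −1.16, mitochondrially encoded genes −1.37, oxidative phosphorylation −2.12, selenoproteins −0.11, iron genes 1.06, polyamine genes 0.35, proximal tubule −1.25, distal segments −0.93, matrix 0.31, endoplasmic reticulum chaperones −1.68, proteasome −1.93, fatty acid oxidation −1.91, immediate early genes 1.04 and glycolysis −0.15. Its CPM was the extreme for Rpph1 (67060), Malat1 (6981), Ftl1 (1885), Rmrp (4031), Gapdh (247.5), Rps2 (597.7), Rpl41 (45.15), Wsb2 (297.5), Nucb2 (9.02), Cetn3 (2.02), Esf1 (6.94), Psmc6 (11.48), Ndufa5 (20.4), Ncl (170.1), Vaultrc5 (33.3), mt-Co1 (1350) and Slc34a1 (3470). Structural RNAs of the nucleus were higher in it, and transcripts of mitochondrial proteins and of the proximal tubule were lower.

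RNA library 1 labelled liver at 1 month gave the highest list medians: all genes 0.66, other oligopyrimidine genes 1.11, snoRNA hosts 0.75, oxidative phosphorylation −0.47, selenoproteins 1.00, stress genes 1.34, distal segments 0.21, fatty acid oxidation −0.26, immediate early genes 1.46, zinc finger factors 0.78 and splicing factors −0.17. Its CPM was lowest for Cetn3 (50.03), Emc2 (66.6), Ndufa5 (220.4) and Ncl (406.7). Gm42418 took 245800 CPM there, and its part in these values was not tested.

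Others were single values. RNA library 2 labelled kidney at 3 months had a nuclear RNA median of 6.25, 44.6 CPM of Malat1 and 55.3 CPM of Esf1. RNA library 3 labelled kidney at 20 months had 23.96 CPM of Ccni and 12.96 CPM of Wsb2. Footprint library 3 labelled 3 months had 784.6 CPM of Spp1, and footprint library 4 a splicing factor median of −0.74.

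The footprint to RNA ratio differed between kidney and liver in the 16 genes named by size. They were taken from genes called by the edgeR interaction with adjusted p under 0.05, so their calls follow from the choice. On the log2 scale, the difference, kidney minus liver, was 3.07 for Gapdh, 3.04 for Spns2, 2.79 for Igf1r, 2.69 for Cfb, 2.51 for Arhgef10l, 2.39 for Kdf1, 2.03 for Lama1 and 1.96 for Rnf24. It was −5.15 for Mir6236, −4.80 for Lars2, −2.005 for Ankrd13c, −1.93 for Hpx, −1.91 for Nfyb, −1.90 for Acnat1, −1.70 for Serpina3k and −1.67 for Mrpl33. The values of Mir6236 and Lars2 were not called without RNA library 1 labelled liver at 1 month, nor without liver footprint library 2 labelled 20 months.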

How the results depend on the processing

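Counts of genes higher or lower in footprints stayed within 1.5 times of the values given, under every scaling, filter, test and left-out library tried: with a library left out, 5706 to 6156 genes were higher and 4945 to 5394 lower, both highest without footprint library 2 labelled 3 months. Counts of at least 2-fold differences were 6239 higher and 4501 lower without a low-count filter, where more genes were tested, and 1896 and 1541 among genes with 50 or more mean counts in both assays, where fewer were. Interaction counts were 285 and 4334 with library size only, and 398 and 620 with only RNA libraries whose label names their profile, where fewer libraries remained. Without RNA library 1 labelled liver at 1 month, they were 978 and 1964, without liver footprint library 2 labelled 20 months 1106 and 2055, and without both 1021 and 1988; these 3 alternatives were added after seeing the data.

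Libraries were also matched by replicate number alone, whatever their labelled age or tissue. The 30 same-numbered pairs of footprint and RNA libraries had a mean correlation of deviations of 0.00321, and other pairs 0.00136. Of 10 RNA libraries, 2 were closest to a footprint library of their number. Such pairs join different labelled ages and tissues, so these values cannot show whether any libraries came from the same animal. With the replicate number as a block 5858 genes were higher and 4934 lower (3263 and 2450 at least 2-fold), and 1178 and 1691 for the interaction.

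The median log2 ratio of all genes was −0.01033 with a minimum of 200 mean counts and −0.0106 with only the 3 RNA libraries labelled kidney. That of ribosomal proteins was 2.79 with a minimum of 10 counts, 1.28 with 200, and 0.94 without members that share a name with a pseudogene (added after seeing the data). That of the other oligopyrimidine genes was 0.34 with 200 counts and 0.36 without such members; of nuclear RNAs 5.95 with 10 counts; of polyamine genes 1.71 with 200. The median log2 ratio of zinc finger transcription factors was −0.22 with 200 and 0.02778 with kidney-labelled RNA. The causes were not tested, except that the minimum changes which genes enter. The log2 ratio of Lars2 moved to −0.40 without the 1-month RNA library. Interactions of Mir6236, Lars2 and Rnf24 were −1.84, −2.30 and 2.66 and no longer called with label-matching RNA only. Without liver footprint library 2 labelled 20 months the interactions of Mir6236 and Lars2 were −2.46 and −1.46, and without that and the 1-month RNA library they turned to 0.6713 and 1.087, none of them called; the lowest values with a library left out, −6.0 and −5.194, were without footprint library 2 labelled kidney at 3 months. Of the remaining alternatives, 182 list medians and counts and 779 values of single genes moved by less than the spread between libraries (counts by less than 1.5 times, interactions without loss of the call), as did 648 and 3289 with libraries left out. Among these, values near zero changed sign with 1 library left out: the median of snoRNA hosts (−0.02 to 0.55) and the ratios of 6 genes, none of them called. RNA depth, down to 3342997 counts, limits genes of low RNA most.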
